A study of Mus musculus with 2 samples.

Results

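Among cultured cells from the dorsal base of the neonatal mouse heart, 360 cells carried Grem1 together with at least one of Nkx6-1, Thbs4 and Wnt4. They were selected on measured values: a member had at least 5 UMIs (unique molecular identifiers, one per captured RNA molecule) of Grem1 and at least 1 UMI of any of the other 3 genes. The 360 members made up 4.03% of the 8926 dorsal cells (Clopper-Pearson 95% interval 3.63% to 4.46%). The same rule found 0 of 10649 ventral cells (upper limit of the share 0.0282%), and 19575 cells were examined in all. The levels of the 4 rule genes are therefore a description of how the members were picked and are not a finding.

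The study set the dorsal domain of the cardiac base, the region of the pulmonary veins, the cardiac ganglia and the sinoatrial node, against the ventral domain, the region of the proximal great arteries and the outflow tract base. Cells came from 15 hearts of 3-day-old C57Bl6 mice of both sexes, pooled by domain, grown as adherent cultures for 5 days and trypsinised. All groups therefore share the strain, the age and the culture, and no animal can be followed within a pool. Each domain was 1 droplet library (10x Genomics 3' chemistry), so there were no replicates, no test was made between or within libraries, and every interval below covers counting error only.

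Gremlin-1, the product of Grem1, is a secreted protein that binds bone morphogenetic proteins (BMPs) and keeps them from their receptors. Noggin, chordin-like 1 and BMPER are other secreted BMP-binding proteins, and the Id genes and Smad6 are transcribed when BMP receptors signal through Smad proteins. Nkx6-1 is a homeodomain transcription factor best known from pancreas and ventral neural tube, Wnt4 is a secreted Wnt ligand, and Thbs4 encodes the matrix protein thrombospondin-4, abundant in tendon and muscle.

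The deposited matrices held 246920028 dorsal and 264822916 ventral UMIs over 28692 genes. Members together had 8981358 UMIs, with a median of 21984.5 UMIs (8034 to 82884), 4385.5 genes and 2.93% mitochondrial UMIs per cell. The other 8566 dorsal cells had a median of 22797.5 UMIs. Of the called barcodes, 22 occurred in both libraries, and 0 of them were members. The automatic threshold of the doublet caller Scrublet marked 0 dorsal cells and so did not work here. No cell was removed as a doublet, and of the 637 dorsal cells with the highest scores 56 were members, 15.6% of members against 6.78% of other dorsal cells. The highest scores were unevenly spread among the members, as given with the clusters.

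Levels are given in CPM, a gene's share of all UMIs of the summed cells on the usual scale, so a level falls alike when fewer cells express a gene and when each cell holds less of its RNA. Grem1 lies on chromosome 2 (113746164 to 113758646, minus strand, GRCm38) and stood at 1019 CPM in members (998 to 1040), 26.2 CPM in other dorsal cells and 1.68 CPM in ventral cells. Nkx6-1, on chromosome 5 (101658139 to 101664996, minus strand), stood at 37.7 CPM in members and 2.29 CPM in other dorsal cells. Thbs4, on chromosome 13 (92751590 to 92794818, minus strand), stood at 221 and 5.36 CPM in the same order. For the background of free RNA, 169 cells with macrophage markers, which should lack these genes, held 8.43 CPM of Grem1, 0.629 of Nkx6-1 and 0.881 of Thbs4. Members were left out of these cells, which can lower their values. Dorsal barcodes with 1 to 100 UMIs, another measure of free RNA, held 45.7 CPM of Grem1, 15.4 of Thbs4 and 14.1 of Wnt4. These levels were above those of other dorsal cells, while Nkx6-1 was at 2.71 CPM on 10 UMIs. Wnt4, on chromosome 4 (137277489 to 137299726, plus strand), stood at 126 CPM in members, 8.59 CPM in other dorsal cells and 2.14 CPM in the macrophage-marked cells.

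A Grem1 UMI was present in 16.6% of other dorsal cells and in 10.7% of the macrophage-marked cells, whose median depth of 43552 UMIs was higher. After every cell was thinned to 8000 UMIs the 2 shares were 10.5% and 4.14%. In members, Nkx6-1 was detected in 58.9% of cells, Thbs4 in 41.1% and Wnt4 in 65.8%, or 28.6%, 28.9% and 45.6% after thinning. In other dorsal cells the unthinned shares were 4.23%, 2.94% and 9.63%, and in ventral cells 0.188%, 2.02% and 6.94%. No single partner defined the members: 73 held Nkx6-1 and Wnt4, 72 Wnt4 alone, 67 Nkx6-1 alone, 48 all 3, 44 Thbs4 and Wnt4, 32 Thbs4 alone and 24 Nkx6-1 and Thbs4.

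Members varied widely in Grem1, from 5 to 134 UMIs per cell with quartiles of 11, 19 and 35. The threshold cut through a continuous range. At 4 Grem1 UMIs, just outside the rule, 22 of 101 dorsal cells held another rule gene, and at 5 UMIs, just inside, 22 of 69 did. Across dorsal cells the share with another rule gene was 19.3% at 1 to 4 Grem1 UMIs, 29.9% at 5 to 9, 51.4% at 10 to 19 and 79.5% at 20 or more. Deeper cells have more UMIs of every gene, and median depth in the same order was 20257.5, 17984, 19568.5 and 23828 UMIs. Depth was thus lower at 5 to 9 and at 10 to 19 than at 1 to 4, and highest at 20 or more. The part of depth in this gradient was not tested.

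**Figure D1:**
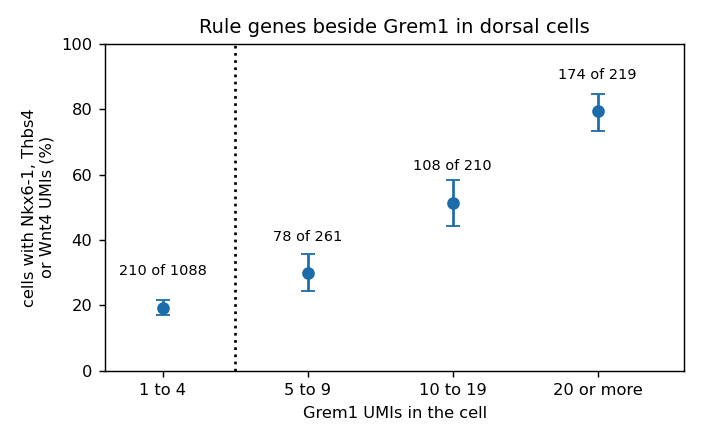
Percentage of dorsal cells with at least 1 UMI of Nkx6-1, Thbs4 or Wnt4 (vertical axis) by the number of Grem1 UMIs in the cell (horizontal axis), with Clopper-Pearson 95% intervals, the cell counts beside the points and the rule's minimum as a dotted line. The share is 19.3% in the lowest class and 79.5% in the highest, and only the cells right of the line can be members.

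The members were not one population. When dorsal cells were clustered without the 4 rule genes, 227 members (63.1%) fell in one cluster of 351 cells, called the first cluster here, and 46 (12.8%) in another of 174 cells, called the second. The other 87 members were scattered over 17 of the 22 clusters, at most 14 in any one. At a finer clustering the first and second groups held 226 and 47 members. Clusters were formed on the same cells, so genes that set a cluster apart are descriptions of it.

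The label of fibroblast-like cells went against the markers of the second cluster. In the first cluster 9 of the 12 fibroblast markers were each present in a majority of the cells. No other marker list was raised there, which required several genes of a list to be 2-fold higher and widely detected. Single genes of other lists were still higher in first-cluster members, among them Kcnj8 and Abcc9 of pericytes and Actg2 of smooth muscle, as given below. The fibroblast count does not set the first cluster apart, since 7 other clusters also had 9 or 10 of the 12, one of them with smooth muscle and pericyte markers raised. Pdgfra, the receptor commonly used to mark fibroblasts, was detected in 202 of the 227 members. In the second cluster 9 of 9 smooth muscle markers were raised, and Pdgfra was detected in 3 of its 46 members. Myh11, smooth muscle myosin, stood at 1334 CPM in second-cluster members and 8.11 CPM in first-cluster members. Actg2, the actin of visceral smooth muscle, stood at 1989 and 185 CPM in the same order. Second-cluster members were also shallower, with a median of 11010.5 UMIs against 21317, and had 6.26% mitochondrial UMIs against 2.69%. They are called smooth muscle-like below, and their small total of 628912 UMIs widens every interval given for them.

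Some of the 87 scattered members carried markers of other cells. The 87 cells' median depth was 32741 UMIs, and 47.1% were among the highest doublet scores, against 5.29% of first-cluster and 6.52% of second-cluster members. They held 96.1% of the members' macrophage-list UMIs, 87.8% of the cardiomyocyte-list UMIs and 85.2% of the skeletal muscle-list UMIs. At least 10 UMIs of the list were found in 5 of the 87 cells for macrophage markers, 5 for cardiomyocyte markers and 1 for skeletal muscle markers. The summed macrophage list was 374 CPM in them and 7.36 CPM in first-cluster members, with 213 CPM in other dorsal cells. The part of doublets in these values was not tested, and values for the first cluster alone are given beside those for all members.

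**Figure D2:**
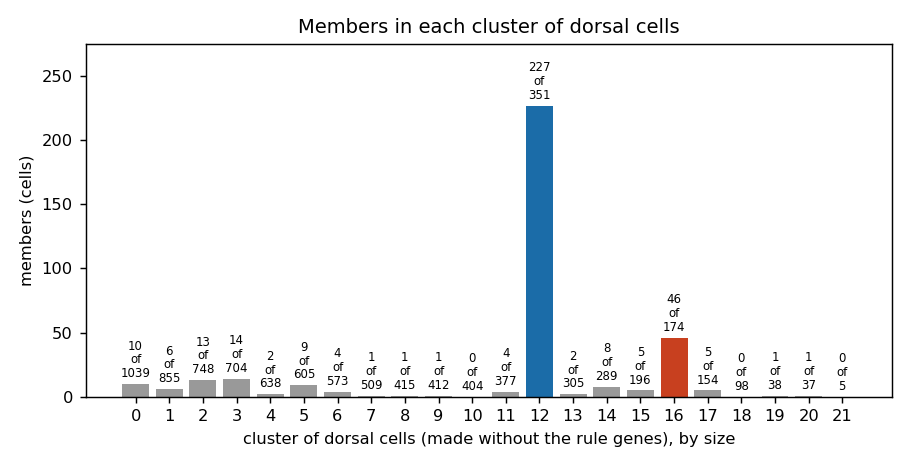
Number of members (vertical axis) in each of the 22 clusters of dorsal cells made without the 4 rule genes (horizontal axis, numbered from the largest cluster), with members and cluster size above each bar. The first cluster, number 12, holds 227 of 351 cells as members and the second, number 16, holds 46 of 174.

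Members against all other dorsal cells gave the broad profile. Genes at 20 CPM or more in either group numbered 5738, of which 136 (2.37%) were at least 2-fold higher in members and 95 (1.66%) at least 2-fold lower. The median log2 ratio over all these genes was -0.03. The lower count was 148 without cells of the highest doublet scores and 251 for first-cluster members alone. Since the rule picked cells within this same contrast, the counts describe the members' profile only. The shares of 2.37% and 1.66% are the background of every list count for all members against other dorsal cells below. First-cluster members alone had 166 genes higher, beside the 251 lower. Their shares were taken against dorsal cells outside both clusters and not members, a slightly smaller group. There 2.97% of 5763 genes were higher and 4.41% lower. A gene below 20 CPM in one group was tested only through its level in the other, which sets its direction.

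The gene with the highest ratio beside the rule genes was Nog, which encodes noggin, at 26.3 CPM in members (23.0 to 29.9) and 0.845 in other dorsal cells, a log2 ratio of 4.96 (4.68 to 5.24). Chrdl1, encoding chordin-like 1, stood at 41.1 and 1.75 CPM (4.55, 4.34 to 4.76). Bmpr1b, a type I BMP receptor, stood at 25.3 and 1.94 CPM (3.70, 3.46 to 3.94). These 3 of the 15 leading genes belong to the BMP pathway, to which Grem1, used by the rule, also belongs. The antagonist and receptor lists that hold these 3 made up 8 and 7 of the 5738 genes. Each of the 3 was below 20 CPM in other dorsal cells and so was compared only through its level in members. Their place among the leading genes is therefore a description and no test of the pathway. Foxf2, a forkhead factor of gut and lung mesenchyme, stood at 20.9 and 1.17 CPM (4.16, 3.88 to 4.44).

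The remaining leading genes were of several kinds. Saa1, an acute-phase serum amyloid gene, had 26.7 CPM in members and 0.981 elsewhere, and Chil1, a secreted chitinase-like protein, had 186 and 21.3. Rgs4, a regulator of G protein signalling, had 43.6 and 1.79 CPM. Npy1r, the Y1 receptor for neuropeptide Y, had 68.6 and 4.47 CPM, and Slc36a2, a small amino acid transporter, had 46.2 and 4.04. Kcnj8, a pore subunit of ATP-sensitive potassium channels that is used as a pericyte marker, had 53.1 and 5.02 CPM. Angptl1, Scube1 and Trac completed the set at log2 ratios of 3.46, 3.30 and 3.38. Trac is the constant segment of the T cell receptor alpha locus, and what transcript its UMIs came from was not examined.

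Cxcl14 and Chrm2 came mainly from the second cluster. Cxcl14, a chemokine, had 51.1 CPM in members and 4.10 in other dorsal cells, but 73.4% of the members' UMIs came from the second cluster. Chrm2, the muscarinic M2 receptor of heart and visceral smooth muscle, had 37.4 and 4.12 CPM with 67.6% from the second cluster. In first-cluster members alone each had 6.22 CPM, a log2 ratio of 0.60 for both genes, which is under 2-fold. Nog, Chrdl1, Foxf2, Bmpr1b, Saa1, Rgs4, Npy1r, Slc36a2, Angptl1, Kcnj8, Trac, Scube1 and Chil1 were past 2-fold in first-cluster members alone.

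The genes with the lowest ratios included markers of mesothelium and heart muscle. Msln, a mesothelial surface protein, had 1.89 CPM in members and 36.9 elsewhere (log2 -4.28). Nppa, the atrial natriuretic peptide of cardiomyocytes, had 35.6 and 411 CPM (-3.53), and Sln, sarcolipin of atrial and skeletal muscle, had a log2 ratio of -3.21. Scg2, Ankrd1, Calca, Gsta3, Mlana, Atp1b1 and Gap43 completed the 10 lowest, between -3.96 and -2.04. Of the cardiomyocyte list 5 of the 6 genes tested were lower, beside a background of 1.66%. This depended on the comparison group. Against the Pdgfra cells described below 1 of 4 was higher and 0 lower, beside 2.51% and 1.84% of all genes. Against Gdf10 Barx1 cells and against Tnfsf8 Il33 cells 3 of 4 were higher, beside 3.35% and 2.96%. For first-cluster members alone 6 of 6 were lower against other dorsal cells, beside the first-cluster share of 4.41%. Against Pdgfra cells 3 of 3 were lower for them, where 236 genes were lower in all. Against Gdf10 Barx1 and Tnfsf8 Il33 cells 1 of 1 was lower for them, beside 4.31% and 3.71%.

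**Figure D3:**
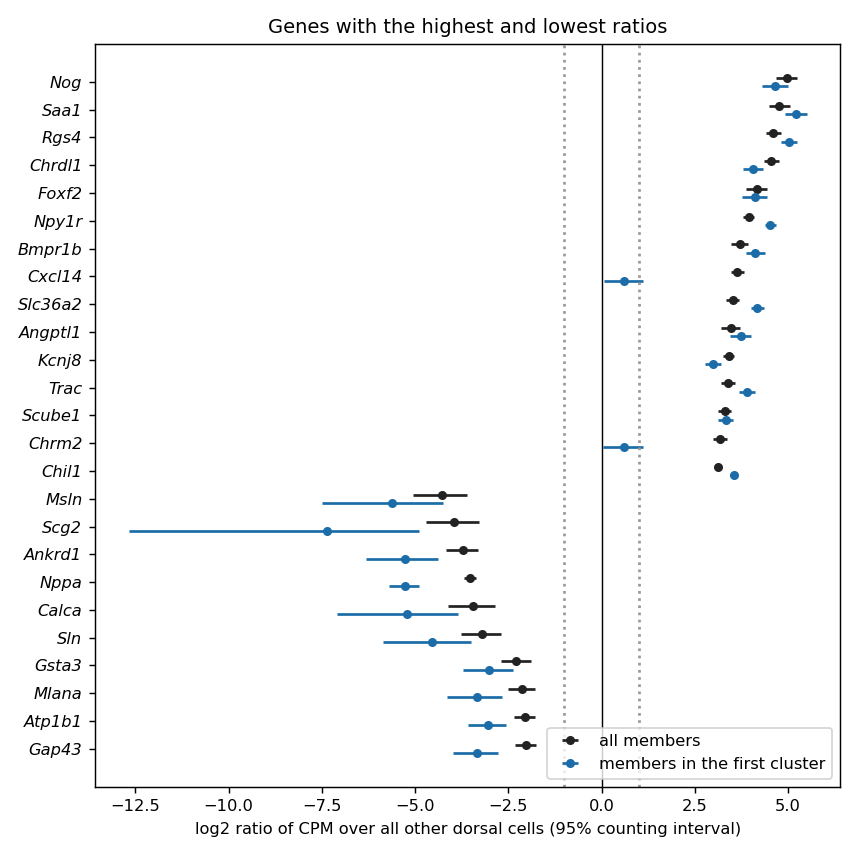
Log2 ratio of CPM over all other dorsal cells (horizontal axis) for the 15 highest and 10 lowest genes (vertical axis), for all 360 members in black and the 227 first-cluster members in blue, with 95% counting intervals and dotted lines at 2-fold. Cxcl14 and Chrm2 lie at 3.64 and 3.18 for all members and at 0.60 for the first cluster, and the other 13 higher genes lie right of the dotted line in both.

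Of the 15 genes in the BMP antagonist list 8 reached 20 CPM besides Grem1, and 5 of them were at least 2-fold higher in members beside 2.37% of all genes, with a median log2 ratio of 1.15 over the 8 against -0.03 over all genes. They included Nog, Chrdl1, Bmper and Nbl1. Nog, Chrdl1 and Bmper were below 20 CPM in other dorsal cells, so the 20 CPM minimum set their direction. Nbl1 was above it in both groups. Bmper, a secreted regulator that binds BMPs, stood at 23.7 CPM in members and 11.1 in other dorsal cells (log2 1.09, 0.88 to 1.30). Nbl1, a DAN family antagonist, stood at 122 and 52.6 CPM (1.22, 1.13 to 1.31).

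The other antagonists were closer to the rest of the dorsal cells. Fst, follistatin, which binds activins, had 60.1 CPM in members and 38.8 elsewhere (0.63). Fstl1 had 425 and 464 CPM (-0.13) and Twsg1, a chordin partner, 31.2 and 33.6 (-0.11). Below 20 CPM in both groups were Fstl3 at 16.7 CPM in members, Dand5 at 5.46, Sostdc1 at 2.23, Chrd at 2.0, Chrdl2 at 1.89 and Sost at 0.779. Chordin itself was thus at 2.07 CPM in other dorsal cells and 2.0 in members, while its relative Chrdl1 differed.

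In the first cluster alone 4 of 8 antagonists were past 2-fold with a median of 1.07, beside the first-cluster share of 2.97% given above. Nog had 21.3 CPM there (log2 4.66 over other dorsal cells, 4.31 to 5.00), Chrdl1 29.2 (4.06, 3.78 to 4.33) and Bmper 27.0 (1.28, 1.02 to 1.52). Nbl1 at 95.8 CPM was below 2-fold (0.86). In smooth muscle-like members the levels were higher for Nog at 161 CPM, Chrdl1 at 237 and Nbl1 at 545, with Bmper at 33.4. First-cluster against second-cluster log2 ratios were -2.91 for Nog (-3.31 to -2.51) and -3.02 for Chrdl1 (-3.35 to -2.68).

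These antagonists were found in a part of the cells. In the first cluster 62 of 227 members held a Nog UMI and 71 a Chrdl1 UMI. In the second cluster the counts were 25 and 33 of 46, although these cells were shallower. In other dorsal cells the shares were 1.67% and 3.49%. After thinning to 8000 UMIs, Nog was detected in 18.1% of first-cluster and 50% of second-cluster members, and in 0.712% of other dorsal cells.

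Receptors differed less, with one exception. Of 7 BMP receptor genes at 20 CPM or more, Bmpr1b was the only one past 2-fold in members, and the median was 0.60. Bmpr1a, the widely expressed type I receptor, had 93.5 CPM in members and 61.5 elsewhere (0.60), and Bmpr2, the type II receptor, had 92.3 and 60.7 (0.60). Rgmb, a BMP co-receptor, had 27.7 and 15.5 CPM (0.84), and Acvr1 had 23.7 and 20.9 (0.18). Bmpr1b was detected in 111 of 227 first-cluster members and 12 of 46 second-cluster members, against 4.31% of other dorsal cells.

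Ligands of the family were not higher. Of 5 tested, 0 were past 2-fold higher and Gdf10 was lower, at 38.3 CPM in members and 114 in other dorsal cells (log2 -1.57, -1.73 to -1.42). Bmp4 had 13.2 and 24.96 CPM (-0.91), and Bmp3 had 17.3 and 21.1 (-0.29). In the first cluster alone Gdf10 had a log2 ratio of -3.43 and Bmp3 of -3.10, so both were past 2-fold lower there. Bmp2 had 6.57 CPM in members, Bmp5 0.668, and Bmp6 and Bmp7 1 UMI each.

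Of 7 transcriptional targets of BMP signalling tested, 5 were past 2-fold higher in members beside 2.37% of all genes, with a median log2 ratio of 1.16. Id1 stood at 126 CPM in members and 39.1 in other dorsal cells (1.69, 1.60 to 1.78), Id2 at 221 and 57.5 (1.94, 1.87 to 2.01) and Id3 at 1111 and 496 (1.16, 1.13 to 1.19). Id4 stood at 31.4 and 7.45 CPM (2.08, 1.89 to 2.26). The Id proteins hold basic helix-loop-helix factors away from DNA. Smad6, an inhibitory Smad, stood at 24.6 and 11.5 CPM (1.10, 0.89 to 1.30), and Smad7 at 80.1 and 55.5 (0.53). Id4 and Smad6 were below 20 CPM in other dorsal cells, so the 20 CPM minimum set their direction. The immediate early genes, which rise within minutes of handling, summed to 3854 CPM in members and 2767 in other dorsal cells, and their part in the Id values was not tested.

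In the first cluster alone 6 of 8 targets were past 2-fold, with a median of 1.49, beside the first-cluster share of 2.97% given above. Smooth muscle-like members had 366 CPM of Id1, 822 of Id2, 1822 of Id3 and 100 of Id4, above the 122, 190, 1255 and 33.6 CPM of first-cluster members. Cells of the second cluster that were not members had 24.7, 128, 331 and 29.8 CPM. Those non-members included 77 of 128 cells with no Grem1 UMI and 7 with at least 5. Within the second cluster the members thus had more RNA of these Id genes than the remaining cells, and more Nog and Chrdl1, as given below. The rule picked members partly on Grem1, itself a BMP antagonist, so this contrast is not independent of the rule and is a description.

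**Figure D4:**
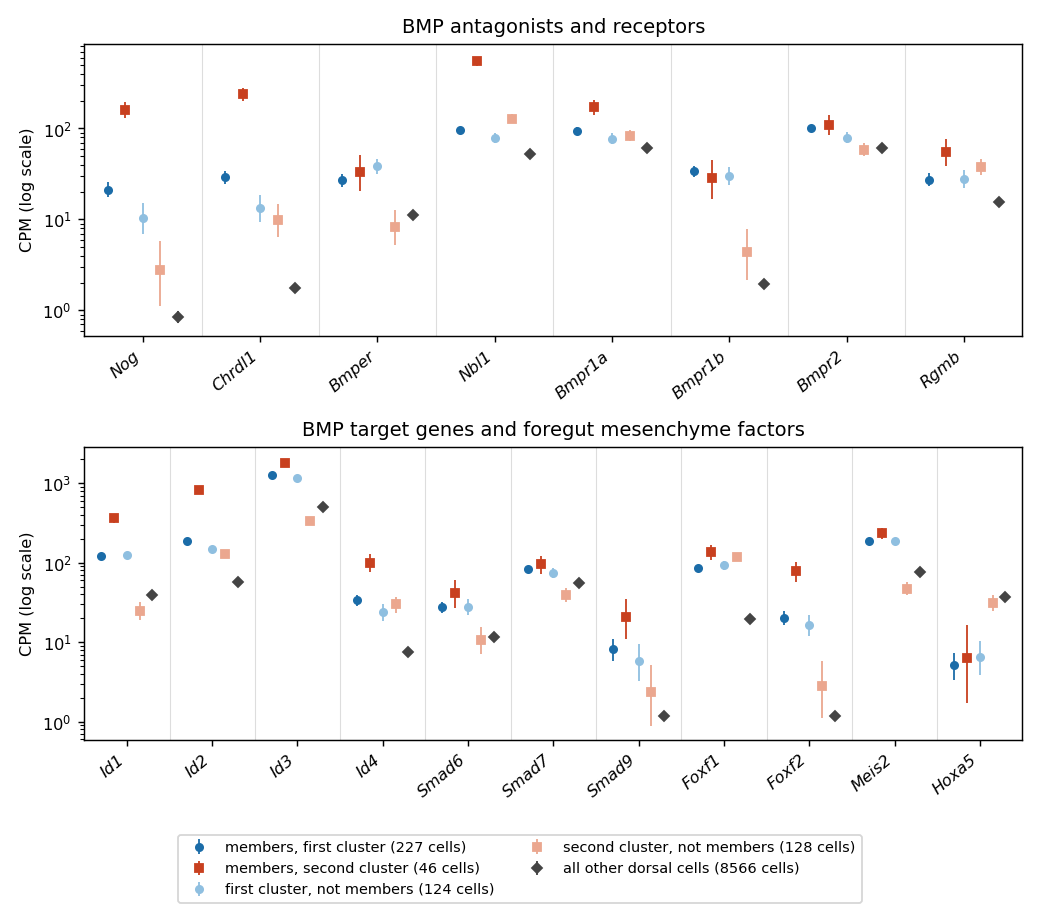
Levels in CPM (vertical axes, log scale, 95% counting intervals) of BMP antagonists and receptors (upper panel) and of BMP targets and foregut mesenchyme factors (lower panel) in members and non-members of the first and second clusters and in all other dorsal cells. Second-cluster members exceed second-cluster non-members for Nog (161 against 2.79 CPM) and Id1 (366 against 24.7 CPM), whereas in the first cluster members and non-members have 122 and 124 CPM of Id1.

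Transcription factors of foregut mesenchyme were mixed. Of 30 listed, 9 were tested, with a median of 0.75. Foxf1, Foxf2 and Meis2 were past 2-fold higher and Hoxa5 lower, beside 2.37% and 1.66% of all genes. Foxf1 and Foxf2 were below 20 CPM in other dorsal cells and Hoxa5 in members, so the 20 CPM minimum set their direction. Foxf1, a hedgehog-responsive factor of splanchnic mesenchyme, stood at 73.0 CPM in members and 19.6 in other dorsal cells (1.90, 1.78 to 2.02). Meis2, a TALE homeodomain factor, stood at 161 and 76.6 CPM (1.08, 1.0 to 1.15), and Hoxa5 at 15.5 and 37.0 (-1.26, -1.51 to -1.02). Osr1 differed little at 91.2 and 82.5 CPM. Barx1, a factor of stomach mesenchyme, stood at 15.8 and 10.7 CPM, and Nkx2-3, Nkx3-2 and Nkx6-2 had 0 UMIs in members, a limit of 0.334 CPM.

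Foxf1 was carried by both kinds of member. A UMI was found in 179 of 227 first-cluster and 37 of 46 second-cluster members, against 27.7% of other dorsal cells. The levels were 85.8 CPM (78.1 to 94.1) and 137 CPM (109 to 169). Foxf2 stood at 20.2 and 77.9 CPM in the same order. In the second cluster Foxf1 was as high without membership, at 118 CPM, but Foxf2 was at 2.79 CPM in those cells.

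Wnt ligands other than Wnt4 were sparse. Only Wnt5a, a ligand of non-canonical signalling, reached 20 CPM, with 43.0 CPM in members and 23.2 in other dorsal cells (0.89, 0.74 to 1.04). Wnt5b had 5.57 CPM in members, Wnt11 4.45, Wnt9a 3.12, Wnt2 2.56, Wnt6 1.78 and Wnt2b 0.779. Wnt10a had 3 UMIs and Wnt10b 1 UMI. Wnt2 and Wnt2b, ligands of lung and foregut mesenchyme, had 0.895 and 0.118 CPM in other dorsal cells.

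Secreted Wnt regulators differed in both directions, 2 of 6 higher and 1 lower, beside 2.37% and 1.66% of all genes. Sfrp1, a Wnt-binding protein, had 547 CPM in members and 228 elsewhere (1.26, 1.22 to 1.31), and Rspo3, which strengthens Wnt signalling, had 392 and 191 (1.04, 0.99 to 1.09). Sfrp2 had 100.4 and 261 CPM (-1.38, -1.48 to -1.28), and -3.87 in the first cluster alone. So the 2 related proteins Sfrp1 and Sfrp2 went in opposite directions. Of 3 canonical Wnt targets tested 0 were higher and Ccnd1 was lower.

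Of 5 hedgehog pathway genes tested the co-receptors Boc and Gas1 were higher and Cdon lower, beside 2.37% and 1.66% of all genes. Boc had 86.2 CPM in members and 28.8 elsewhere (1.58, 1.47 to 1.69), Gas1 had 329 and 134 (1.30, 1.25 to 1.36) and Cdon had 12.9 and 25.9 (-1.01, -1.28 to -0.74). The pathway targets were scarce: Ptch1 had 8.13 and 5.28 CPM, Hhip 1.34 and 1.89, and Gli1 1 UMI in members.

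The smooth muscle list depended on the cluster and on the comparison group. Against other dorsal cells, which include muscle cells, 5 of 8 were past 2-fold in all members (median 1.28), namely Myh11, Cnn1, Lmod1, Des and Actg2. For first-cluster members 1 of 8 was higher and 1 lower (median 0.06), beside the first-cluster shares of 2.97% and 4.41%. Actg2 had a log2 ratio of 1.93 (1.84 to 2.03) and Myh11 of -2.04 (-2.51 to -1.61). Actg2 was detected in 129 of the 227 first-cluster members, against 12.9% of other dorsal cells, while Myh11 was detected in 21. Against Pdgfra cells first-cluster members had 5 of 7 smooth muscle genes higher (median 1.35), where 171 genes were higher in all. Against Gdf10 Barx1 cells 6 of 7 were higher (1.53), beside 3.42% of 5616 genes. Against Tnfsf8 Il33 cells 6 of 7 were higher (1.55), beside 3.06% of 5654 genes. Acta2, smooth muscle actin, stood at 1123 CPM in first-cluster members and 442 in Pdgfra cells (1.35, 1.31 to 1.38), and Cnn1, calponin, at 40.2 CPM in first-cluster members, also above Pdgfra cells (1.87, 1.66 to 2.08).

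Of 6 listed pericyte markers 3 were tested, Rgs5 (46.2 against 19.9 CPM), Abcc9 (21.2 against 6.38) and Kcnj8. All 3 were past 2-fold higher, beside 2.37% of all genes. Each was below 20 CPM in other dorsal cells, so it was tested only through its level in members. Their direction was thus set by the 20 CPM minimum, and the count is no finding. Higd1b, another pericyte marker, had 0 UMIs in members. Kcnj8 and Abcc9, which encode the 2 subunits of one potassium channel, had log2 ratios of 2.98 and 1.38 in the first cluster alone. Smooth muscle-like members had 240 CPM of Kcnj8, against 19.5 in second-cluster non-members.

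Inflammatory and acute-phase genes were higher for 4 of 25 tested, beside 2.37% of all genes: Chil1, Lcn2, Ptgs2 and Cxcl14. Lcn2, the iron-siderophore binding protein lipocalin-2, had 958 CPM in members and 409 in other dorsal cells (1.23, 1.19 to 1.26). Ptgs2, the inducible cyclooxygenase, had 122 and 29.5 CPM (2.05, 1.96 to 2.14). Il6 had 83.5 and 73.2 CPM, and Hp, haptoglobin, 241 and 218. Saa1 and Chil1 were uneven across members: Saa1 had 36.2 CPM in the first cluster and 0 UMIs in the second, a limit of 4.77 CPM. A Chil1 UMI was present in 92 of 227 first-cluster members, with a median of 0, an upper quartile of 4 and a maximum of 74 UMIs per cell.

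Matrix genes were close to the rest of the dorsal cells. Of 16 collagens 1 was higher, Col8a1, a short-chain network collagen, at 192 and 59.3 CPM (1.69, 1.62 to 1.77), and the median was -0.03. Of 15 elastic fibre genes 0 were past 2-fold in either direction. Of 10 fibroblast markers tested 0 were past 2-fold, with Dpt at 42.0 and 30.02 CPM, Lum at 482 and 327 and Tcf21 at 85.6 and 56.5. By the same measure 5 antagonists, 5 targets and Bmpr1b, described above, were past 2-fold.

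Growth factor genes included an insulin-like growth factor pattern of opposite signs. Of 10 genes Igf1 and Igfbp5 were higher, and Igf2, Igfbp2 and Igfbp3 lower, beside 2.37% and 1.66% of all genes. Igf1 had 169 CPM in members and 50.7 elsewhere (1.74, 1.66 to 1.82), while Igf2 had 73.5 and 152 (-1.05, -1.16 to -0.93). Igfbp3 had 112 and 343 CPM (-1.62). Dlk1, a secreted and membrane-bound Delta-like protein, was detected in 192 of 227 first-cluster members, at 602 CPM there against 56.6 in other dorsal cells (3.41, 3.36 to 3.47).

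Of 13 neurotrophic and guidance genes 2 were higher and 4 lower, beside 2.37% and 1.66% of all genes. Nrtn, neurturin, a survival factor of parasympathetic neurons, had 47.9 CPM in members and 10.5 elsewhere (2.18, 2.03 to 2.33). Sema3c, a guidance ligand also needed for outflow tract septation, had 79.1 and 17.2 (2.20, 2.08 to 2.32). Among the lower genes, Sema3d had 29.3 and 64.9 CPM (-1.15) and Edn1, endothelin-1, had 6.79 and 27.7 (-2.03). Nrtn and Sema3c were also past 2-fold in first-cluster members, at 2.20 and 2.45.

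Against cells of similar kind the BMP genes still differed. Other dorsal Pdgfra cells, 4571 cells with at least 2 Pdgfra UMIs, were the broadest such group. Of 5698 genes 143 (2.51%) were at least 2-fold higher in members and 105 (1.84%) lower, with an all-gene median of 0.00. BMP antagonists were higher for 3 of 8 and targets for 4 of 7. For first-cluster members the log2 ratio was 5.24 for Nog (4.80 to 5.69), 4.0 for Chrdl1 (3.70 to 4.30) and 4.01 for Bmpr1b (3.73 to 4.29). Myh11 led among all members at 3.98 but was 0.05 in the first cluster.

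The second comparison was with 428 dorsal cells holding at least 2 UMIs each of Gdf10, a BMP-family ligand, and Barx1. Of 5645 genes 189 (3.35%) were higher in members and 117 (2.07%) lower, with a median of 0.06. The lower count was 184 without the highest doublet scores. BMP antagonists were higher for 4 of 8 and targets for 3 of 7. Nog and Saa1 had 1 UMI each in those cells, which gives log2 ratios of 8.06 (5.57 to 13.4) and 8.08 (5.59 to 13.4). Rgs4, Actg2, Npy1r, Trac and Nkain4 followed at 5.47, 5.18, 4.80, 4.78 and 4.47. Myl1 had 4.65, but the 87 scattered members held 97.8% of its UMIs and the first cluster alone gave -0.19.

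Gdf10 and Barx1 chose those cells, so their lower levels in members are no finding. Beside them Krt8, Cldn11, Mecom, Ccl8, Prss35 and Fgf18 were lowest in members, Krt8 with 1 UMI. Mecom, a zinc finger transcription factor, had 5.90 CPM in members and 66.3 in Gdf10 Barx1 cells (-3.49), and Fgf18, a growth factor of cartilage and lung, had 6.24 and 44.8 (-2.84). The Ccl8 ratio of -3.16 was -0.19 when cells with the highest doublet scores were left out. Foxf1 was closer to this group than to the other dorsal cells, with a first-cluster log2 ratio of 1.07 (0.88 to 1.27), and Boc was at 0.14 (-0.02 to 0.30). Barx1 still reached 15.8 CPM in members.

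The third comparison was with 637 dorsal cells holding at least 2 UMIs each of Tnfsf8 and Il33, both cytokines. Of 5684 genes 168 (2.96%) were higher in members and 88 (1.55%) lower, with a median of 0.01. The lower count was 133 without the highest doublet scores. BMP antagonists were higher for 5 of 8 and targets for 3 of 7. Chil1 led with 186 against 2.66 CPM (6.12, 5.73 to 6.55), followed by Nog (5.71, 4.81 to 6.79), Hpgd, Scube1, Chrm2, Fam150a, Tnni2 and Saa1. Hpgd encodes the enzyme that inactivates prostaglandins, and its log2 ratio was 5.24. Tnni2, a fast skeletal muscle troponin, was 4.42 for all members and 0.77 for the first cluster.

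Calca, encoding calcitonin gene-related peptide, was lowest there at -3.90, and Igfbp3 stood at -2.79. First-cluster members had log2 ratios over Tnfsf8 Il33 cells of 2.16 for Id1 (2.0 to 2.33), 1.88 for Id2 and 1.08 for Id3. Over Gdf10 Barx1 cells the same ratios were 1.11 (0.95 to 1.28), 1.33 and 0.92. The 3 comparison groups share the member values, so they do not stand as separate evidence for any gene.

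Across the first cluster, membership itself separated few genes. With the interval required to lie past 2-fold, 1 of 5475 genes (0.0183%) was higher in the 227 members than in the 124 other cells of that cluster and 5 (0.0913%) were lower. The higher gene was Myoc, myocilin, at 21.3 and 2.88 CPM (2.89, 1.86 to 4.13). The lower genes were Ccl5, Spp1 and 3 genes of heart muscle, Nppa at 10.6 and 143 CPM, Myl7 at 2.83 and 59.1 and Tnnt2 at 9.05 and 63.8. Npy1r was at 103 and 93.3 CPM (0.14, -0.08 to 0.36), Bmpr1b at 33.8 and 30.3 (0.16, -0.22 to 0.55) and Foxf1 at 85.8 and 92.6 (-0.11, -0.33 to 0.12). The non-members of this cluster included 38 cells without Grem1 UMIs and 32 with at least 5.

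Members and non-members of the first cluster did differ in these antagonists, though with intervals that reached below 2-fold. Nog was 21.3 and 10.4 CPM (1.03, 0.43 to 1.67) and Chrdl1 29.2 and 13.3 (1.13, 0.61 to 1.69). Kcnj8 was 39.6 and 16.2 CPM (1.29, 0.82 to 1.79). Id1 was 122 and 124 CPM (-0.03, -0.22 to 0.16), Smad6 27.3 and 27.7 and Meis2 187 and 186. Bmper was the antagonist with the opposite sign, at 27.0 and 38.2 CPM (-0.50, -0.87 to -0.13).

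In the second cluster membership separated many more genes. Of 6056 genes 125 (2.06%) had an interval past 2-fold higher in the 46 members than in the 128 other cells and 25 (0.413%) past 2-fold lower. Cxcl14 had 536 and 3.58 CPM (7.23, 6.28 to 8.37), Nog 161 and 2.79 (5.85, 4.75 to 7.20) and Foxq1, a forkhead factor, 63.6 and 1.19 (5.74, 4.08 to 8.07). Foxf2 had 77.9 and 2.79 CPM (4.81, 3.66 to 6.19) and Chrdl1 237 and 9.95 (4.57, 3.96 to 5.25). Trac had 52.5 CPM and 0 UMIs, at least 43.9-fold higher in members. Muscle genes common to the cluster were close: Myh11 was 1334 and 1570 CPM (-0.24), Actg2 1989 and 2557 (-0.36) and Chrm2 361 and 252 (0.52).

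Heart muscle genes were lower in these members too, with Actc1 at 0 UMIs against 92.7 CPM, at least a log2 difference of 4.28, and Tnnt2 at 74.7 and 525 CPM (-2.81). Of the 128 non-members 18.0% had the highest doublet scores, against 6.52% of members, and whether this bears on the difference was not tested. Hoxa5 was 6.36 CPM in members and 31.4 in non-members (-2.31, -4.22 to -0.89).

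Both kinds of member shared a part of their profile. Against dorsal cells that were outside both clusters and not members, 211 of 6447 genes were at least 2-fold higher in first-cluster members and 693 in second-cluster members. Common to both were 131 genes, 62.1% of the first group's list and 18.9% of the second's. For the share over all genes, each comparison was also taken with its own genes at 20 CPM or more. Higher were 10.9% of 6323 genes in second-cluster members and 2.97% of 5763 in first-cluster members. They included Rgs4, Nog, Foxf2, Chrdl1, Bmpr1b, Trac, Angptl1, Kcnj8, Sema3c, Nrtn, Foxf1 and Id4. The 2 lists share their comparison cells, so this overlap is a description. Npy1r and Slc36a2 were not shared, with 103 and 72.6 CPM in the first cluster and 4.77 and 3.18 in the second.

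Within the first cluster members were also divided by each rule gene. A member without one of Nkx6-1, Thbs4 and Wnt4 must hold another of them, so the arms of each division are bound to the rule and their differences are a description only. The 117 members with a Thbs4 UMI were set beside the 110 without one, and mean depth was 21347 and 25495 UMIs per cell. Of 5533 genes 39 (0.705%) had an interval past 2-fold higher with Thbs4 and 0 (0%) past 2-fold lower. Chil1 was 490 and 30.3 CPM (4.02, 3.70 to 4.35), Ptn, the growth factor pleiotrophin, 1312 and 154 (3.09, 2.94 to 3.23) and Nrp2, a semaphorin and VEGF receptor, 112 and 17.1 (2.71, 2.26 to 3.18). Hand2, a transcription factor of heart and limb mesenchyme, was 22.4 and 2.85 CPM (2.97, 1.90 to 4.26). Wfdc17, Saa1, Angptl1 and Scube1 were also higher, at 3.35, 2.28, 2.44 and 2.32.

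Foxf1, Foxf2 and Bmpr1b had similar levels in both arms. Foxf1 was 86.5 CPM with Thbs4 and 85.2 without, Foxf2 20.8 and 19.6, and Bmpr1b 31.2 and 36.0. Members with Wnt4 (149) differed from those without (78) past 2-fold in 11 of 5523 genes higher (0.199%) and 1 lower (0.0181%), the lower gene being Car6, a secreted carbonic anhydrase. Saa1 was 54.6 and 5.99 CPM and Chil1 370 and 44.4 in that division, and H19, an imprinted noncoding RNA, 159 and 35.5. Saa1, Chil1 and Wfdc17 were thus higher both with Thbs4 and with Wnt4.

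The last division was by Nkx6-1. Between the 133 first-cluster members with Nkx6-1 and the 94 without, 0 of 5509 genes (0%) were past 2-fold higher and 6 (0.109%) lower, by intervals. The 6 were Apoc1, Clca3a1, Saa1, Cxcl13, Pdlim3 and Trac. Saa1 was 12.4 CPM with Nkx6-1 and 73.1 without (-2.56, -3.10 to -2.05), and Trac 28.9 and 83.2 (-1.53, -1.91 to -1.15).

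**Figure D5:**
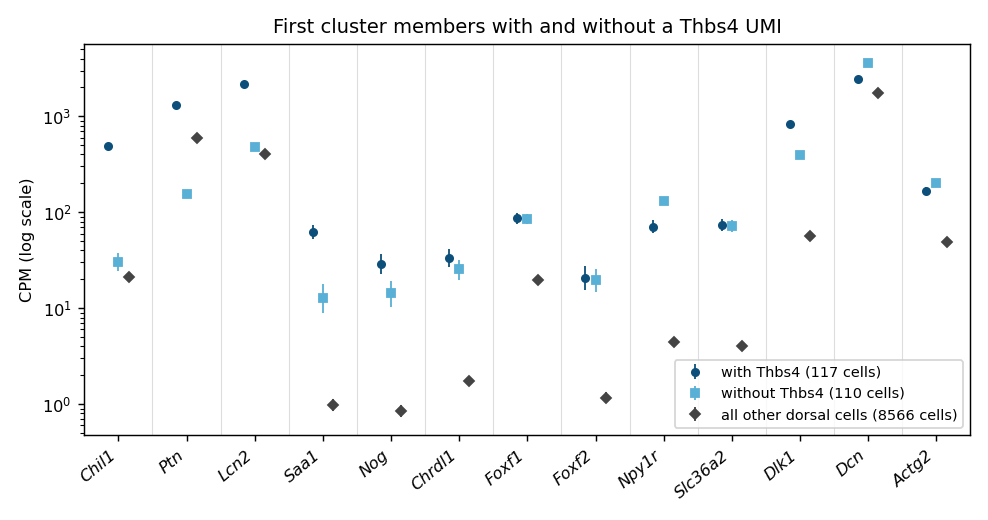
Levels in CPM (vertical axis, log scale, 95% counting intervals) of 13 genes in first-cluster members with a Thbs4 UMI (117 cells) and without one (110 cells), and in all other dorsal cells. Chil1 is at 490 and 30.3 CPM with and without Thbs4 and Ptn at 1312 and 154, whereas Foxf1 is at 86.5 and 85.2.

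The ventral library had no member, and several of the leading genes were scarce in its Pdgfra cells. Among 2921 ventral Pdgfra cells Nog stood at 0.419 CPM, Chrdl1 at 0.241, Foxf1 at 2.88 and Foxf2 at 0.584. Members exceeded these by log2 ratios of 5.97 for Nog (5.44 to 6.54), 7.41 for Chrdl1 (6.75 to 8.16) and 4.66 for Foxf1 (4.44 to 4.89). The sets are unlike, since members were not chosen on Pdgfra, which 3 of the 46 smooth muscle-like members held. First-cluster members alone stood at 21.3 CPM for Nog, 29.2 for Chrdl1 and 85.8 for Foxf1. Other genes were less scarce: Rgs4 stood at 5.61 CPM in ventral Pdgfra cells (2.96, 2.76 to 3.16) and Nrtn at 12.6 (1.92, 1.75 to 2.09). The BMP targets went in both directions: Id1 was lower in members (-0.21, -0.30 to -0.12), as were Smad6 (-0.55, -0.75 to -0.35) and Smad7 (-0.75, -0.86 to -0.64). Id4 was higher at 2.16 (1.95 to 2.37), Smad9 at 1.75, Id2 at 1.21 and Id3 at 0.44. Bmp4 was lower in members at -2.23 and Col8a1 at -1.16. With 1 library per domain, domain, dissection, culture and library cannot be told apart in these values.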

How the data were processed

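One dorsal and one ventral droplet library were analysed. Per the submitters' processing notes the reads were processed with Cell Ranger 3.0.2 against mm10. The sources used here do not give the alignment settings. As deposited, the matrices are raw UMI counts of every barcode, neither normalised nor filtered. Cells were barcodes with at least 8000 UMIs and at most 20% mitochondrial UMIs. The members, comparison groups and 41 gene lists were chosen with earlier results of these data known. UMIs were summed over cells and given as CPM. Poisson intervals were used for CPM, conditional binomial intervals for ratios and Clopper-Pearson intervals for shares, all exact at 95%. A count of 0 was given a limit of 3 counts. UMIs of one cell are not independent, so the intervals are too narrow for differences between cells or animals. Genes were compared at 20 CPM or more in either group, and called at 2-fold, or, within members, when the interval lay past 2-fold. These calls describe size and are not tests. The named genes were the 15 highest and 10 lowest against other dorsal cells and the 8 highest and 8 lowest against each other group, without mitochondrial, ribosomal protein, provisional and rule genes, together with up to 6 examples of each list and the BMP antagonists and Wnt ligands with a UMI in members; a few genes are not reported here. Genes named within members and clusters were taken from the highest and lowest ratios after their values were seen. Clustering used scanpy 1.11.5 with 2000 variable genes, 30 components, 15 neighbours and Leiden resolution 1.0. Genome positions came from GENCODE M21 (GRCm38). The calculation of ratios was tested on simulated data. Alternatives covered the Grem1, depth and mitochondrial thresholds, doublets, thinning, scaling, weighting and the 20 CPM minimum.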

Additional observations from a re-analysis of the deposited data

How the results depend on the processing

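The number of members was 418 with at least 3 Grem1 UMIs, 282 with at least 10, 304 with at least 12000 UMIs per cell, 358 with at most 10% mitochondrial UMIs, 304 without the highest doublet scores and 185 when the rule was applied after thinning. Under thinning 216 genes were 2-fold higher against other dorsal cells and 234 against Pdgfra cells, and 137 were lower against Tnfsf8 Il33 cells. Without the highest doublet scores 148, 184 and 133 genes were lower against other dorsal, Gdf10 Barx1 and Tnfsf8 Il33 cells. The mean of per-cell CPM gave 144 lower against other dorsal cells. With no expression minimum the higher and lower counts were 1171 and 1162 against other dorsal cells, 1304 and 852 against Pdgfra cells, 1289 and 791 against Gdf10 Barx1 cells and 1115 and 809 against Tnfsf8 Il33 cells. With first-cluster members only, a choice made after seeing the data, 251, 236, 242 and 210 genes were lower in the same order of groups, and with members of both clusters only, also chosen afterwards, 232, 219, 224 and 192. The cause of these shifts was not tested. The median of the BMP antagonists was 0.96 with at least 12000 UMIs and 0.76 with no expression minimum. Among the named genes' ratios, Myl1 against Gdf10 Barx1 cells reversed, to -0.19 with first-cluster members and -0.23 with members of both clusters, since the scattered members held nearly all of its UMIs. The small UMI total of second-cluster members widens their intervals. No paired analysis was possible because each domain was a single library.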

Other observations

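A further 330 dorsal cells held at least 5 Grem1 UMIs and no UMI of Nkx6-1, Thbs4 or Wnt4, so 690 dorsal cells passed the Grem1 minimum. They had 22206 UMIs per cell on average, against 24948 in members. Of 5687 genes at 20 CPM or more, members had 94 at least 2-fold higher and 90 at least 2-fold lower than these cells. In the ventral library 21 cells held at least 5 Grem1 UMIs. Together they had 478790 UMIs, and Nog and Myh11 were at 0 UMIs in them, which allows up to 6.27 CPM of each. Their lack of Nkx6-1, Thbs4 and Wnt4 UMIs follows from the rule, since no ventral cell was a member, and is no finding.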
